A study of Homo sapiens with 6 samples.

Results

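Heat shock factor 1 (HSF1) and 9 heat shock chaperone genes were followed at the transcript level in Ewing sarcoma cells exposed to THZ1, a compound that binds the kinase CDK7 covalently and inhibits it. The 10 genes were HSF1, HSPA1A, HSPA1B, HSPA8, HSPH1, DNAJB1, HSP90AA1, HSP90AB1, HSPD1 and HSPE1, taken by symbol from 27420 listed genes, and each symbol was listed once. The cells were the Ewing sarcoma lines A673 and SKNMC, for which the labels name no allele and no agent other than those given here. Each line was exposed for 6 h to vehicle (DMSO), to THZ1 at 50 nM (the low dose) or to THZ1 at 200 nM (the high dose). RNA-Seq gave 1 library per condition, 6 in all, in FPKM (fragments per kilobase of transcript, scaled to the mapped fragments of the library). There is therefore no replicate error and no test, and every difference given is one between single libraries. Both doses of a line are compared with its single vehicle library.

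HSF1 is the transcription factor that switches on chaperone genes when unfolded proteins accumulate. It is held inactive by the chaperones it induces, and once released it forms trimers that bind heat shock elements, arrays of the unit GAA in alternating orientation. HSP70 proteins fold clients in cycles of ATP hydrolysis that J-domain proteins stimulate and nucleotide exchange factors complete, HSP90 supports the maturation of kinases and receptors, and HSPD1 with HSPE1 forms the folding chamber of mitochondria. CDK7 is a kinase of the general factor TFIIH that phosphorylates RNA polymerase II as transcription begins.

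Changes are log2((FPKM + 1) of a THZ1 library / (FPKM + 1) of the vehicle library), a scale that understates the change of low genes. A gene is said to have risen or fallen only where it differed by at least 2-fold on this scale. Active genes were above 1 FPKM with vehicle, which held for all 10 genes in both lines. An FPKM value is a share of its library, and the ribosomal protein genes took a growing share: 13.7% of A673 with vehicle and 17.7% with the high dose, and 19.0% and 29.7% of SKNMC. Their part in the levels described here was not tested. In bulk RNA, fewer cells with a transcript and less of it per cell cannot be told apart. All 9 Ewing sarcoma markers examined, CD99, NKX2-2 and STEAP1 among them, were above 1 FPKM in every library, with sums of 728 to 1633 FPKM. Of 12 markers of blood, epithelial, muscle and endothelial cells, 10 were below 1 FPKM in every library, CD3E, HBB and MYOG being listed at 0 throughout. The exceptions were PTPRC in SKNMC and KRT8 in both lines, and the sum of the 12 was 11.9 to 25.9 FPKM.

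The 10 genes did not move as a block. HSPA8 and its partner DNAJB1 had lower values with each dose in each line, HSPA1B rose with the low dose only, and the HSP90 and mitochondrial chaperonin genes kept within 1.5-fold of vehicle. With the low dose, 1 of the 10 fell in A673 (DNAJB1), where 15.9% of 11077 active genes fell, and 1 rose (HSPA1B), where 0.343% rose. In SKNMC those same genes passed the threshold, DNAJB1 down against 15.8% of 11896 active genes and HSPA1B up against 0.471%. With the high dose, DNAJB1 and HSPA8 fell in A673, where 25.3% of active genes fell, and in SKNMC, where 27.3% fell. None of the 10 rose with the high dose, against 0.126% of active genes in A673 and 0.462% in SKNMC. A share of 1 or 2 in 10 down is near these backgrounds. The median log2 change of the 10 genes was 0.13 (low dose) and -0.011 (high dose) in A673, and -0.0099 and -0.061 in SKNMC. The corresponding medians of all active genes were -0.27, -0.40, -0.32 and -0.55.

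**Figure D1:**
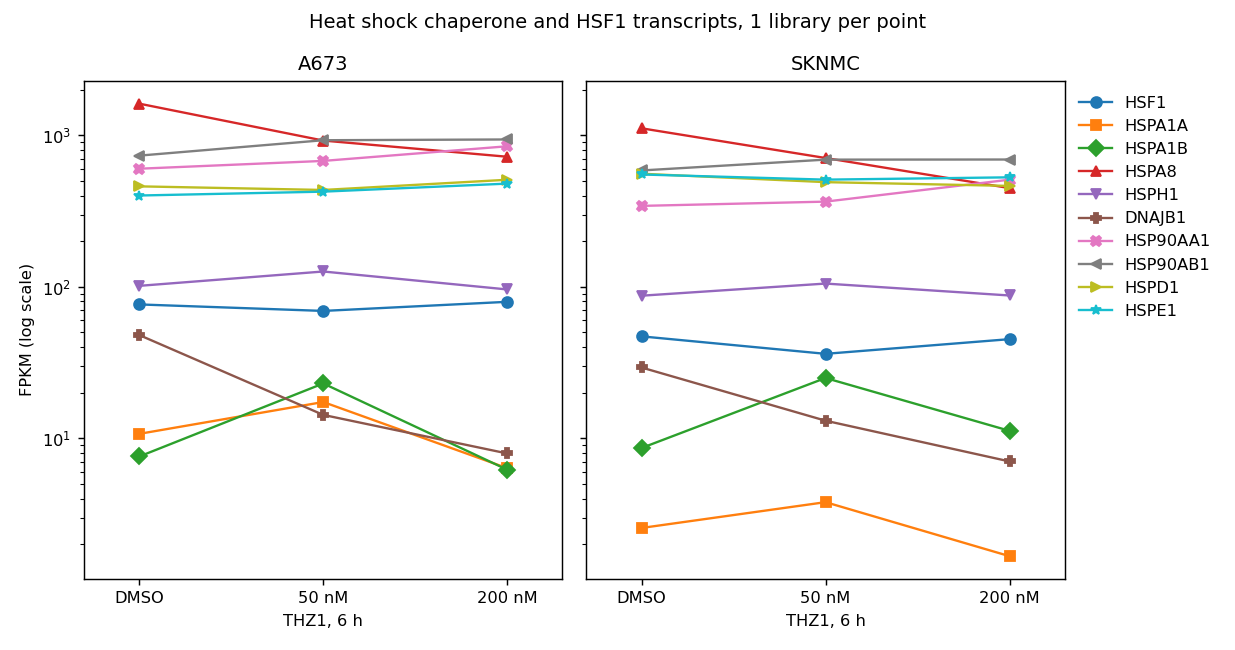
FPKM of the 10 genes on a log scale by THZ1 dose in A673 (left) and SKNMC (right), where each point is 1 library and lines join the libraries of a cell line. HSPA8 and DNAJB1 descend with dose in both lines, and HSPA1B is highest at 50 nM (23.0 and 25.0 FPKM).

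**Figure D2:**
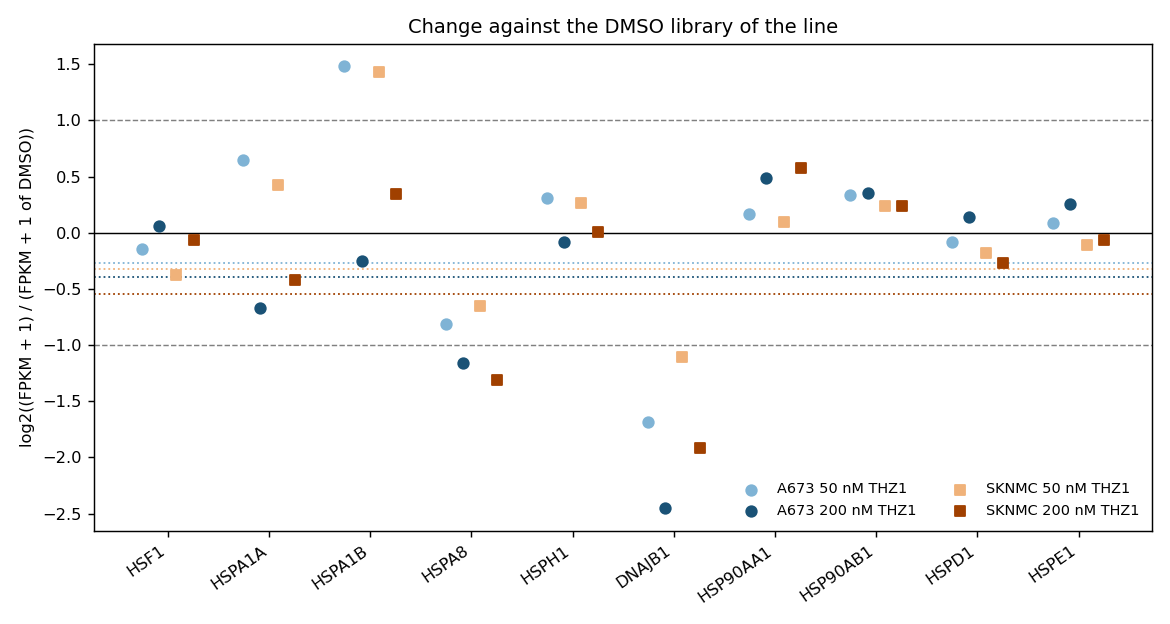
Log2 change of each gene against the vehicle library of its line, with dashed lines at 2-fold and dotted lines at the median of all active genes in the matching color. DNAJB1 lies between -2.46 and -1.11, and HSPA1B at 50 nM, at 1.48 and 1.43, is above the upper dashed line.

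HSF1 itself (ENSG00000185122, chr8:145515279-145538385, hg19) was moderately expressed. Its levels in A673 were 76.5, 69.3 and 79.6 FPKM with vehicle, the low and the high dose, the order kept for all values below. SKNMC had 47.1, 36.1 and 45.1 FPKM. The low-dose library was the lowest of the 3 in each line and the high-dose library was close to vehicle. The log2 changes, -0.14 and 0.056 in A673 and -0.37 and -0.060 in SKNMC, were all short of 2-fold. Of these, only the low-dose value in SKNMC kept its sign under each of 3 other scalings of the libraries, namely a common sum, the 75th percentile of active genes and the median ribosomal protein gene. Relative to the median of active genes, HSF1 stood 0.45 (A673) and 0.49 (SKNMC) higher with the high dose. With the low dose the corresponding values were 0.13 in A673 and -0.054 in SKNMC, the latter below that median.

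Its relative HSF2, another factor of the family, fell with the high dose. HSF2 levels in A673 were 17.1, 15.0 and 3.09 FPKM. Those in SKNMC were 24.6, 32.0 and 7.90 FPKM. The high-dose library was by far the lowest in each line, with log2 changes of -2.15 and -1.53, while the low-dose values were -0.17 and 0.37. HSBP1, which encodes a small protein that binds the HSF1 trimer, had 0.43 and 0.18 with the high dose, the latter negative with the ribosomal protein scaling, and HSF4 had 0.41 and 0.65. HSF5 and HSF2BP were not active in either line. Of the 3 active genes of this list, 1 fell with the high dose in each line and none rose. Among all active genes, 25.3% fell and 0.126% rose in A673 with the high dose, and 27.3% and 0.462% in SKNMC.

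The sequences upstream of the transcript start are shown for 5 genes that span the responses: DNAJB1 and HSPA8, which fell, the inducible pair HSPA1A and HSPA1B, and HSP90AA1, which did not pass 2-fold. Each is the 250 bases before the start of the canonical GENCODE transcript on GRCh37, the build of the deposited coordinates, in transcript direction. Capitals mark matches to the heat shock element, either 2 units (GAANNTTC or TTCNNGAA, each its own reverse complement) or 3 units (GAANNTTCNNGAA or its reverse complement TTCNNGAANNTTC, both of which contain 2-unit matches). The windows lie at chr19:14629210-14629459 (minus strand), chr11:122932845-122933094 (minus strand), chr6:31783070-31783319 (plus strand), chr6:31795265-31795514 (plus strand) and chr14:102553382-102553631 (minus strand).
DNAJB1: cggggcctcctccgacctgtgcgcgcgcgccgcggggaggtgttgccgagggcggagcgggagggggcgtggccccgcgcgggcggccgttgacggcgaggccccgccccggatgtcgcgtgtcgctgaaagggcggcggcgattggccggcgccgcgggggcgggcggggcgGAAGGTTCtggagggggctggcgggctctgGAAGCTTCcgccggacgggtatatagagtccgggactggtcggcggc
HSPA8: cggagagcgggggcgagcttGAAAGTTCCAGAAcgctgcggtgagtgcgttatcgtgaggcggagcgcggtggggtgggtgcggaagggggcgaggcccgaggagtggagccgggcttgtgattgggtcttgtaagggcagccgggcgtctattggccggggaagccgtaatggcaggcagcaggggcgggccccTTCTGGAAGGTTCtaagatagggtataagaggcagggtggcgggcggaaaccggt
HSPA1A: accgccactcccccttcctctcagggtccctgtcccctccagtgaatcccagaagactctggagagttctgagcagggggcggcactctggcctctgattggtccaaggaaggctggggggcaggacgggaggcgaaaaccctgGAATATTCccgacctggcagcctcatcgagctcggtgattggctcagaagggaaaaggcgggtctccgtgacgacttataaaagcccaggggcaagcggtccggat
HSPA1B: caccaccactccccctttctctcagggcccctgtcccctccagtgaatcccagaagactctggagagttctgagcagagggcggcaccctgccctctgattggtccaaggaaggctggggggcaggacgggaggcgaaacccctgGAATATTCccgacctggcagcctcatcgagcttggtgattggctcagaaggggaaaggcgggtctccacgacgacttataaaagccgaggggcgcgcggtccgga
HSP90AA1: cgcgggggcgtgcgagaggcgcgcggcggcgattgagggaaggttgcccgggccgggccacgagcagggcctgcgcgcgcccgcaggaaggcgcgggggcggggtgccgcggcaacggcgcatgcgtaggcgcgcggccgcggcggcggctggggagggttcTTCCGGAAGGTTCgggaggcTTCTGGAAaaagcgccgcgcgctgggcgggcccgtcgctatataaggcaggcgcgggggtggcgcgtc
DNAJB1 held 2 separate 2-unit matches and HSPA8 held 2 separate 3-unit matches. HSPA1A and HSPA1B carried the same GAATATTC, beginning at -106 and -105 from their starts. HSP90AA1 held 1 match of 3 units and a separate one of 2 units.

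A match of 2 units lay upstream of 7 of the 10 genes and of 9.33% of 19347 listed protein-coding genes. A match of 3 units lay upstream of 4 of the 10 (HSPA8, HSPH1, HSP90AA1 and HSPD1) and of 0.320% of the 19347. HSF1, HSP90AB1 and HSPE1 held neither in this window. The genes that fell and the gene that rose all held a match, and so did HSPA1A, HSPH1, HSP90AA1 and HSPD1, which passed 2-fold against vehicle in no library. Of 78 other chaperone network genes with a window, 21 held 2 units and 6 held 3 units. A match is a description of letters, and binding by HSF1 was not measured.

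**Figure D3:**
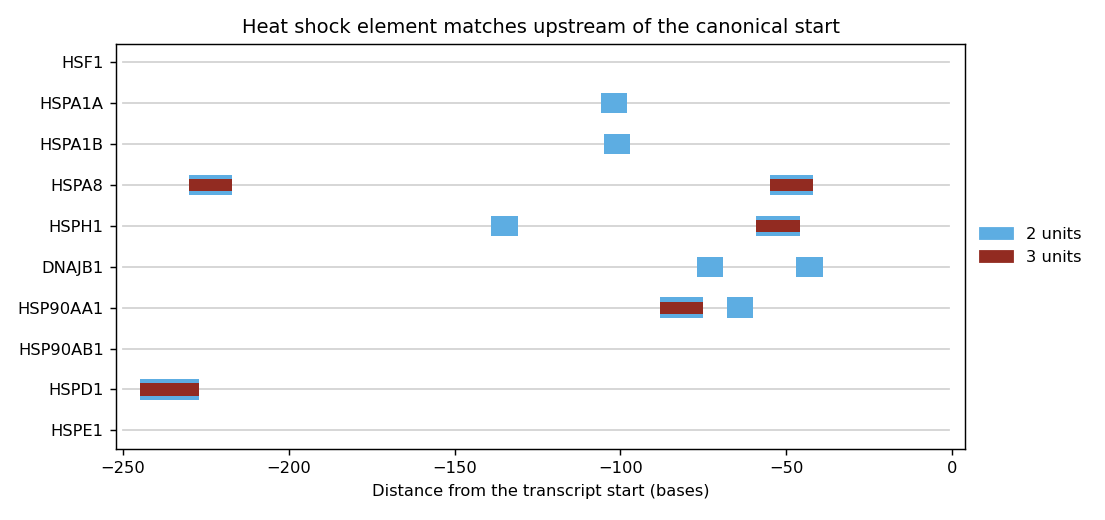
Heat shock element matches in the 250 bases upstream of each canonical transcript start, by distance from the start in bases, with 2-unit matches in blue and 3-unit matches in dark red. The 3-unit matches of HSPD1 and 1 of HSPA8 lie between -245 and -218, and those of HSP90AA1, HSPH1 and the other of HSPA8 between -88 and -43.

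HSPA8 (ENSG00000109971, chr11:122928196-122933938), the constitutive HSP70 of the cytosol, was the most abundant of the 10 transcripts with vehicle. Its levels in A673 were 1618, 923 and 722 FPKM. In SKNMC they were 1113, 708 and 448 FPKM. Each step in dose brought a lower value in each line, and the high-dose library held 44.6% of the vehicle value in A673 and 40.3% in SKNMC. The log2 changes were -0.81 (low dose) and -1.16 (high dose) in A673 and -0.65 and -1.31 in SKNMC, past 2-fold with the high dose. Scaled to the 75th percentile of active genes, the high-dose values were -0.79 and -0.74, short of 2-fold. With the ribosomal protein scaling the low-dose values were -1.03 in A673, past 2-fold, and -0.99 in SKNMC. Many genes fell further: 20.4% of active genes in A673 and 16.4% in SKNMC had a lower value.

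HSPA8 also lost ground within the set. It held 39.9% of the summed FPKM of the 10 genes in A673 with vehicle and 19.6% with the high dose, and 33.5% and 16.0% in SKNMC. Its ratio to HSP90AB1, which no scaling of a library can move, was 2.20, 0.995 and 0.769 in A673. In SKNMC the ratio was 1.90, 1.02 and 0.648. HSP90AB1 was thus the most abundant of the 10 with the high dose in both lines, and already with the low dose in A673.

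**Figure D4:**
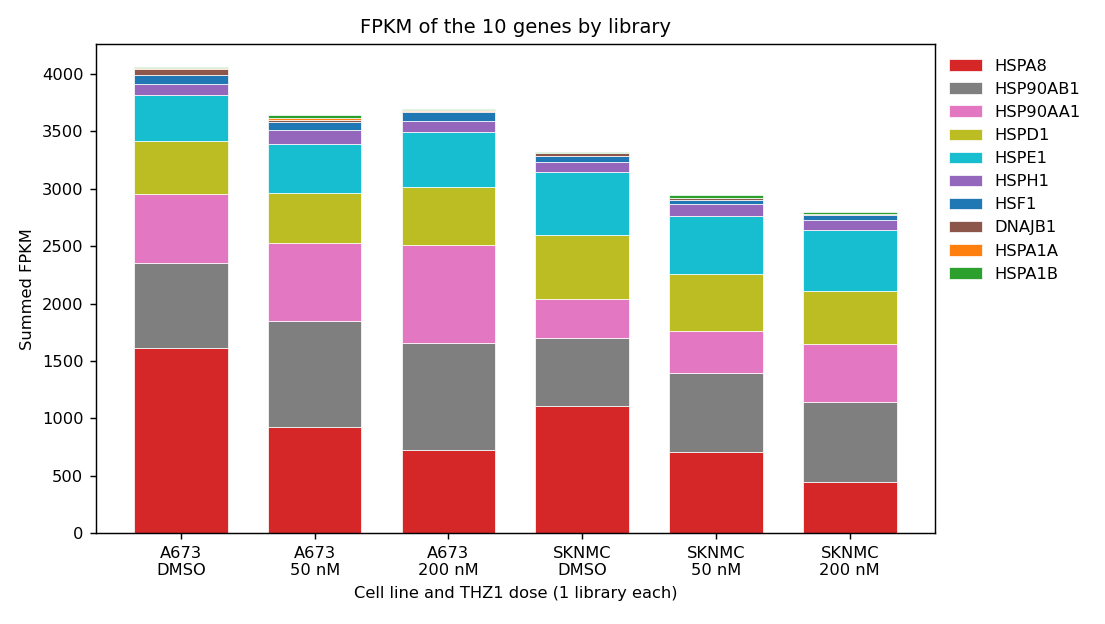
Summed FPKM of the 10 genes in each of the 6 libraries, stacked by gene from 0. The sum was 4059 FPKM in A673 with DMSO and 3693 at 200 nM, and 3325 and 2794.5 in SKNMC, with a smaller HSPA8 block at each dose.

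DNAJB1 (ENSG00000132002, chr19:14625581-14640582), a J-domain partner of HSP70 that is itself induced by HSF1, had the lowest values of the 10 genes in all 4 comparisons with vehicle. Its levels in A673 were 48.0, 14.3 and 7.94 FPKM. SKNMC gave 29.3, 13.1 and 7.04 FPKM. All 4 THZ1 libraries were below both vehicle libraries, and the high dose was the lower in each line. DNAJB1 fell in all 4 comparisons, with log2 changes of -1.68 and -2.46 in A673 and -1.11 and -1.92 in SKNMC. The low-dose value in SKNMC was -0.83, short of 2-fold, when scaled to the 75th percentile. With the high dose, 162 of 11077 active genes in A673 and 520 of 11896 in SKNMC had a lower value. Even against the declining HSPA8 it lost ground, from 2.97% of the HSPA8 level to 1.10% in A673 and from 2.64% to 1.57% in SKNMC.

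HSPA1A (ENSG00000204389, chr6:31783290-31785723) and HSPA1B (ENSG00000204388, chr6:31795511-31798031) encode the stress-inducible HSP70 and lie in tandem. Their canonical transcripts have 1 exon each, with 9795 bases between them. Of all windows of 100 bases in the HSPA1A transcript, 72.4% occur unchanged in HSPA1B, and 68.9% of those of HSPA1B occur in HSPA1A. A 100-base read from there cannot be assigned to either gene alone, so the split of the pair is uncertain and its sum is given as well.

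HSPA1B levels in A673 were 7.59, 23.0 and 6.20 FPKM. SKNMC had 8.63, 25.0 and 11.2 FPKM. The low-dose library was the highest in each line, 3.03-fold above vehicle in A673 and 2.90-fold in SKNMC, and the high-dose library was near vehicle. HSPA1B rose with the low dose, with log2 changes of 1.48 and 1.43, and kept this direction under every scaling tried. A higher value was seen for 9 of 11077 active genes in A673 and 14 of 11896 in SKNMC. The high-dose values were -0.25 and 0.34, of which the A673 value turned to 0.073 with the 75th percentile and the SKNMC value to -0.17 with the ribosomal protein scaling.

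HSPA1A levels were 10.7, 17.4 and 6.35 FPKM in A673. They were 2.56, 3.79 and 1.67 FPKM in SKNMC. The low dose was again highest, and here the high dose was below vehicle in both lines, but no value passed 2-fold, with log2 changes of 0.65 and -0.67 in A673 and 0.43 and -0.42 in SKNMC. With the ribosomal protein scaling the high-dose value in A673 was -1.01, past 2-fold. Summed, the pair had 18.3, 40.4 and 12.6 FPKM in A673. The SKNMC sums were 11.2, 28.8 and 12.9 FPKM. The sum rose with the low dose in both lines, with log2 changes of 1.10 and 1.29, and had -0.51 and 0.19 with the high dose. The pair remained a minor part of cytosolic HSP70 transcripts. HSPA8 exceeded it 88.5-fold in A673 and 99.4-fold in SKNMC with vehicle, and 22.9-fold and 24.6-fold with the low dose.

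HSPH1 (ENSG00000120694, chr13:31710761-31736525), an HSP110 protein that exchanges nucleotide on HSP70, had 101, 126 and 96.1 FPKM in A673. It had 87.4, 105 and 87.7 FPKM in SKNMC. The low-dose library was the highest of the 3 here too, by a small margin. The log2 changes were 0.31 and 0.26 with the low dose and -0.078 and 0.0048 with the high dose, and only the low-dose value in A673 kept its sign under every scaling tried. Relative to HSPA8, HSPH1 went from 0.0627 with vehicle to 0.133 with the high dose in A673 and from 0.0785 to 0.195 in SKNMC.

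The cytosolic HSP90 genes stayed near or above vehicle. HSP90AA1 (ENSG00000080824, chr14:102547074-102606036), the isoform that heat shock induces, had 602, 678 and 847 FPKM in A673. SKNMC values were 342, 365 and 509.5 FPKM. The level was higher at each dose step in each line, with log2 changes of 0.17 and 0.49 in A673 and 0.093 and 0.57 in SKNMC, although the low-dose values turned negative in both lines (-0.055 and -0.24) with the ribosomal protein scaling. The high-dose values stayed positive under every scaling tried, and the one in SKNMC was 1.14, past 2-fold, with the 75th percentile.

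HSP90AB1 (ENSG00000096384, chr6:44214823-44221620), the constitutive isoform, had 734, 928 and 939 FPKM in A673. Its SKNMC levels were 586, 691 and 692 FPKM. Both doses were above vehicle by a like step in each line, with log2 changes of 0.34 and 0.35 in A673 and 0.24 and 0.24 in SKNMC, of which all but the low-dose value in A673 turned negative with the ribosomal protein scaling. The ratio of HSP90AA1 to HSP90AB1 was 0.820, 0.730 and 0.902 in A673. For SKNMC it was 0.584, 0.528 and 0.736. In both lines the ratio was lowest with the low dose and highest with the high dose.

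HSPD1 (ENSG00000144381, chr2:198351304-198381461) and HSPE1 (ENSG00000115541, chr2:198364717-198368181) encode the mitochondrial HSP60 ring and its HSP10 lid and are transcribed away from each other. Their canonical transcript starts have 538 bases between them. The heat shock element counted for HSPD1 spans -311 to -294 from the HSPE1 start, outside the window searched for HSPE1. HSPD1 had 460.3, 436 and 509 FPKM in A673 and 558, 491 and 464 FPKM in SKNMC. HSPE1 had 401, 425 and 480.0 FPKM in A673 and 551, 509.8 and 528 FPKM in SKNMC. For both genes the A673 value was highest with the high dose and the SKNMC value was highest with vehicle, by small margins. The log2 changes of HSPD1 were -0.079 and 0.14 in A673 and -0.18 and -0.27 in SKNMC, and each of the 4 changed sign under 1 other scaling. Ring and lid transcripts stayed near parity, with ratios of 1.03 to 1.15 in A673 and 0.878 to 1.01 in SKNMC.

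Read sharing touched some of these levels. Of the 100-base windows of HSPE1, 31.7% occur in other genes, mainly the read-through gene HSPE1-MOB4 (20.5%), so its level is uncertain. For HSPD1, HSP90AA1 and HSP90AB1 the share was 4.29%, 2.33% and 1.67%, all with pseudogenes. HSF1, HSPA8, HSPH1 and DNAJB1 shared no window.

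With vehicle, the lines differed most in HSPA1A, with a log2 difference (A673 over SKNMC) of 1.72. It was the only one of the 10 past 2-fold, where 8.42% of 12399 genes active in either line were higher in A673 and 15.0% were lower. For the sum of HSPA1A and HSPA1B the difference was 0.66. HSP90AA1 (0.81), DNAJB1 (0.69), HSF1 (0.69) and HSPA8 (0.54) leaned to A673. HSPE1 (-0.46) and HSPD1 (-0.28) leaned to SKNMC. Under the ribosomal protein scaling HSPD1 had the opposite sign and HSPE1 was close to no difference (-0.0057). In both lines with vehicle HSPA8 was the first of the 10 by level, HSP90AB1 the second, HSPH1 the sixth, HSF1 the seventh and DNAJB1 the eighth. Without replicates no neighbors in this order can be called different, and HSPD1 and HSPE1 in SKNMC, at 558 and 551 FPKM, were close together.

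From the low to the high dose, HSPA1B fell in both lines (log2 values of -1.74 in A673 and -1.09 in SKNMC) and HSPA1A fell in A673 (-1.32), where 7.44% of active genes fell in A673 and 8.39% in SKNMC. The SKNMC value of HSPA1B was -0.84, short of 2-fold, with the 75th percentile. HSPA1A in SKNMC had -0.84, DNAJB1 had -0.77 and -0.81, and HSPA8 had -0.35 and -0.66. On the other side were HSP90AA1 with 0.32 and 0.48 and HSF1 with 0.20 and 0.31. None of the 10 rose, against 0.117% of active genes in A673 and 0.370% in SKNMC.

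The wider chaperone network was described with 8 lists that together held 79 genes, 66 active in A673 and 68 in SKNMC. With the low dose 6 fell in A673 (9.09%) and 5 in SKNMC (7.35%), beside the 15.9% and 15.8% of all active genes. With the high dose 18 fell in A673 (27.3%) and 20 in SKNMC (29.4%), beside 25.3% and 27.3%. None rose in any of the 4 comparisons. The median log2 changes were -0.17 and -0.18 in A673 and -0.26 and -0.50 in SKNMC. These counts moved with the scaling: the 75th percentile gave 3 and 13 genes down in A673 and 4 and 12 in SKNMC, with medians above 0 and 2 genes up in SKNMC with the high dose (CDC37 and HSF4), and the ribosomal protein scaling gave 8 and 24 in A673 and 10 and 36 in SKNMC. None of the falls changed its sign under a scaling, and those that dropped below 2-fold with the 75th percentile are named below.

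The list of nucleotide exchange factors and other HSP70 partners held 8 active genes. BAG proteins open the nucleotide-binding domain of HSP70 so that ADP and client are released. None of the 8 fell with the low dose, while BAG2, BAG3, BAG4 and BAG5 fell with the high dose in each line, 4 of 8 beside 25.3% of all active genes in A673 and 27.3% in SKNMC. BAG1, HSPBP1, ST13 and STUB1 passed 2-fold in no comparison with vehicle. BAG2 had 48.9, 29.7 and 11.6 FPKM in A673 and 26.0, 18.7 and 3.75 FPKM in SKNMC, with high-dose log2 changes of -1.98 and -2.51. BAG3, which HSF1 induces and which links HSP70 to autophagy, had 23.1, 38.2 and 10.9 FPKM in A673 and 8.24, 13.5 and 2.93 FPKM in SKNMC. Like HSPA1A, BAG3 was highest with the low dose and lowest with the high dose in both lines, with log2 changes of 0.70 and 0.65 and then -1.01 and -1.23. The high-dose changes of BAG4 were -1.93 and -1.41 and those of BAG5 -1.58 and -1.17. ST13, which binds HSP70 in its ADP state, had 0.38 and 0.30, the latter negative with the ribosomal protein scaling. With the 75th percentile BAG3 in both lines and BAG4 and BAG5 in SKNMC were short of 2-fold, which leaves 3 of the 8 genes down in A673 and 1 in SKNMC, beside 16.1% and 13.0% of all active genes under that scaling.

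Of the other J-domain genes, 3 of 16 active genes fell with the low dose and 6 with the high dose in A673, and 2 and 5 of 15 in SKNMC. Beside these, and beside the HSP70 family counts below, 15.9% and 25.3% of all active genes fell in A673. In SKNMC 15.8% and 27.3% fell. DNAJB5 had 5.03, 0.529 and 0.812 FPKM in A673 and 6.40, 0.842 and 0.613 FPKM in SKNMC, and fell with both doses. DNAJA2, a cytosolic partner of HSPA8, had 47.1, 30.8 and 13.9 FPKM in A673 and 24.5, 21.1 and 6.63 FPKM in SKNMC, and fell with the high dose (-1.69 and -1.74). DNAJB12, a protein of the endoplasmic reticulum membrane, fell in all 4 comparisons, with log2 changes from -1.51 to -1.30. DNAJC5, a J-domain protein of secretory vesicles, had -1.43 and -1.56 with the high dose. Among other HSP70 family genes none fell with the low dose, and with the high dose HSPA14 fell in both lines (-1.10 and -1.58) and HSPA13 in SKNMC (-1.36), 1 of 5 active genes in A673 and 2 of 6 in SKNMC. The values of HSPA14 in A673 and HSPA13 in SKNMC were short of 2-fold with the 75th percentile, as were those of DNAJC2 in A673 and DNAJC21 in both lines. HSPA2 differed between the lines with vehicle, at 7.19 FPKM in A673 and 1.07 in SKNMC. HSPA6, an HSP70 gene of strong stress, was below 1 FPKM in all 6 libraries.

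Of 14 HSP90 cochaperone genes, 1 fell with the low dose and 2 with the high dose in each line. The shares of all active genes that fell were 15.9% and 25.3% in A673 and 15.8% and 27.3% in SKNMC. TTC4 fell with both doses, with high-dose log2 changes of -1.65 and -2.46, and CDC37L1 fell with the high dose, with -1.73 and -1.75. CHORDC1, with 3 of the 3-unit heat shock element matches upstream, the most of any gene on the lists, had -0.74 and -0.59 in A673 and -0.82 and -0.81 in SKNMC. FKBP5 had -0.25 and -0.88 with the high dose. No small heat shock protein gene passed 2-fold with THZ1 among 3 active genes in A673 and 4 in SKNMC. HSPB1, the most abundant of them, had 301, 356 and 442 FPKM in A673 and 349, 406 and 454 FPKM in SKNMC. Its SKNMC log2 changes, 0.22 and 0.38, turned to -0.12 and -0.19 with the ribosomal protein scaling. With vehicle, CRYAB was higher in A673 (28.9 against 1.75 FPKM) and HSPB8 in SKNMC (20.6 against 0.161 FPKM).

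Among 10 other mitochondrial chaperone genes, 2 fell with each dose in A673, and 1 and 4 in SKNMC. For this list and the HSF1-induced list below, the background was 15.9% and 25.3% of all active genes down in A673. In SKNMC it was 15.8% and 27.3%. GRPEL2, a mitochondrial nucleotide exchange factor, had -1.92 and -1.41 with the high dose, and CLPX, the ATPase partner of the CLPP protease, had -1.73 and -1.47. DNAJA3, a mitochondrial J-domain protein, fell with the low dose in both lines (-1.23 and -2.03) and with the high dose in SKNMC (-1.70, against -0.89 in A673). GRPEL1 fell in SKNMC (-1.15) and had -0.57 in A673. Of 18 other genes known to be induced through HSF1, 10 of which are also on the lists above, 16 were active in A673, where none fell with the low dose and 3 with the high dose. In SKNMC 17 were active, of which 1 and 3 fell. DEDD2 (-2.11 and -2.12) and BAG3 fell with the high dose in both lines. HMOX1, heme oxygenase, fell with both doses in SKNMC (-1.02 and -1.74). With the 75th percentile, short of 2-fold were HMOX1 in SKNMC with the low dose, CLPX, DNAJA3 and DNAJC5 in A673 with the low dose, and CLPX, GRPEL1 and GRPEL2 in SKNMC with the high dose. The median log2 changes of the HSF1-induced list were -0.058 and -0.13 in A673 and 0.11 and -0.46 in SKNMC.

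**Figure D5:**
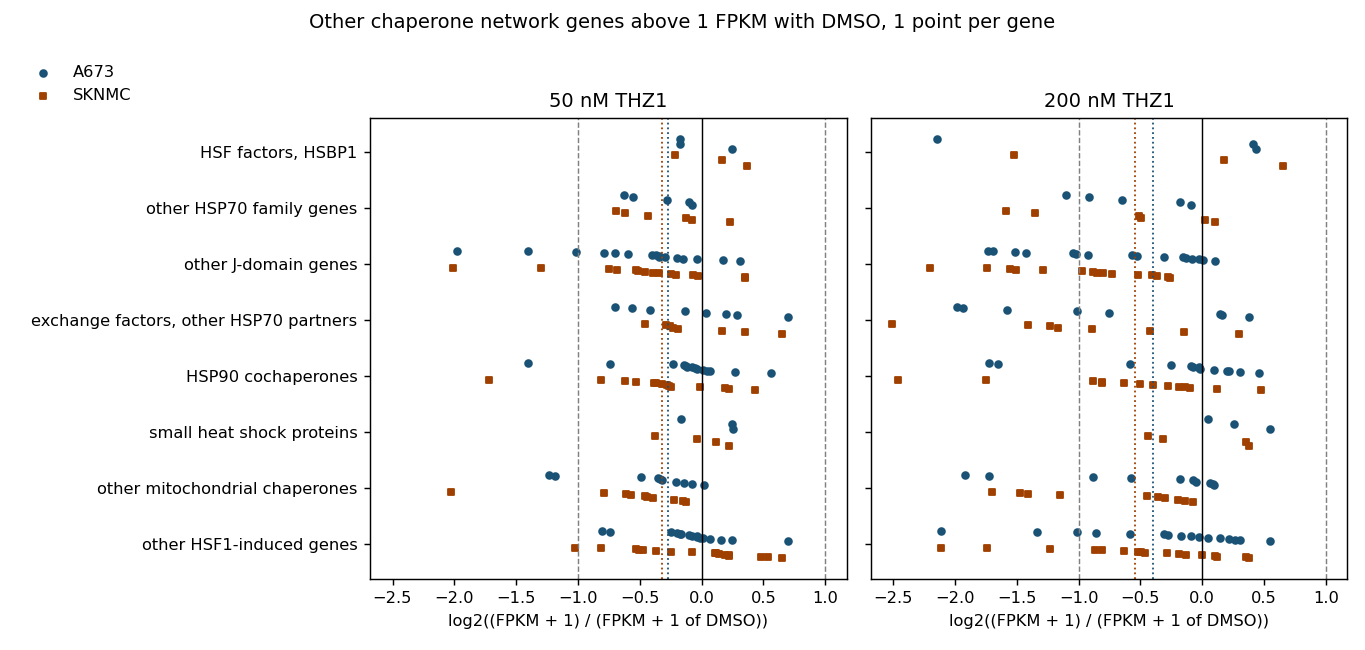
Log2 change at 50 nM (left) and 200 nM (right) of the active genes of 8 lists in A673 (blue circles) and SKNMC (orange-brown squares), with dashed lines at 2-fold and dotted lines at the median of all active genes of the line. At 200 nM, 4 of 8 genes of the exchange factor list lie below -1 in each line, and 2 of 14 HSP90 cochaperone genes do. At this dose 25.3% of all active genes fell in A673 and 27.3% in SKNMC.

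The genes with the most similar responses were found by Euclidean distance over the 4 log2 changes against vehicle, among 5978 genes with vehicle levels over 10 FPKM in each line and no library at 0. As the 4 changes share 1 vehicle library per line, likeness is only a description. HSPA8 was nearest to SLC7A1 and TNKS2 (distances 0.082 and 0.12). DNAJB1 was nearest to PIK3R1 and CENPA (0.19 and 0.22), and HSPA1A to NMD3 and RAB11FIP1 (0.18 for each). Among the genes searched, HSPA1B had none within 0.25, and its nearest were NXF1 and ARGLU1 at 0.60 and 0.71. HSPA1B itself was below the 10 FPKM limit with vehicle (7.59 in A673 and 8.63 in SKNMC), as was HSPA1A in SKNMC (2.56). Genes at such levels were not searched, so closer ones may exist and HSPA1B cannot be called isolated. The nearest genes were GIPC1 and AAAS for HSF1, GLG1 for HSPH1, BLOC1S1 and BGN for HSP90AA1, FARP1 and SF3B14 for HSP90AB1, MRPS15 and PSMA4 for HSPD1, and PSMD8 and UBL7 for HSPE1, at distances of 0.021 to 0.083. Within 0.25 lay 3 genes for DNAJB1, 4 for HSPA1A, 19 for HSPA8 and 297 for HSPE1.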

How the data were processed

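RNA from A673 and SKNMC was sequenced after 6 h with DMSO, 50 nM or 200 nM THZ1, 1 library per condition, grouped by the sample labels. The authors made TruSeq libraries, aligned paired-end reads of 100 bases with STAR (hg19, Ensembl 75) and deposited FPKM per gene. Their methods name StringTie for FPKM, and the submitters' processing notes name Cufflinks. Versions are not given in the sources used here. The deposited table is titled as an average although a single library stands behind each column. It also holds log2 fold changes made by the authors, which were not used. FPKM keeps no read counts, so depth and counting error are unknown. A listed 0 can be a failed estimate.

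The pseudocount was 1, the threshold 2-fold, and active genes were above 1 FPKM with DMSO (in either line when the lines were compared). Shared windows were exact matches among GENCODE 44 transcripts on GRCh37. Python 3.11.15, pandas 2.3.3, NumPy 2.4.6 and matplotlib 3.10.9 were used. Only the log2 change and its 2-fold threshold were tested on simulated data, for the low dose in A673. The scalings, shared windows, element matches and nearest genes were not. The 10 genes and the lists were chosen with earlier results of these data known. From each list, up to 4 genes past 2-fold in a comparison were named by size of mean change at 200 nM, or the highest and lowest where none passed. HSF4, HSF5, HSF2BP, ST13, HSPA6, CDC37, DNAJC2, DNAJC21, BAG1, HSPBP1 and STUB1 were added after their values were seen. Some genes that the rule names are not reported here. Alternatives were a pseudocount of 0.1, 3 scalings, a 1.5-fold threshold, no filter or control FPKM above 10, and HSPA1A and HSPA1B summed.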

Additional observations from a re-analysis of the deposited data

Results flagged for a closer look

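HSPE1 had changes of opposite sign in the lines. Its log2 change was 0.084 with the low dose and 0.26 with the high dose in A673, but -0.11 and -0.062 in SKNMC. With single libraries this difference between lines was not tested. The A673 values turned to -0.14 and -0.097 with the ribosomal protein scaling, and the SKNMC values to 0.18 and 0.51 with the 75th percentile. Among 10574 genes active in both lines, 464 (4.39%) had this pattern of signs and 93 (0.880%) had the reverse.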

How the results depend on the processing

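No paired analysis was possible because each condition has 1 library and the labels give no replicate numbers, and for the same reason no replicate could be left out. Of the 10 genes in 7 comparisons (70 values), the common sum changed 1 sign, the 75th percentile 11 and the ribosomal protein scaling 17, none of a value past 2-fold. These last 2 scalings moved the median of active genes by 0.22 and -0.21 (A673, 50 nM), 0.32 and -0.33 (A673, 200 nM), 0.25 and -0.29 (SKNMC, 50 nM), 0.48 and -0.45 (SKNMC, 200 nM), 0.099 and -0.11 (A673, 200 against 50 nM), 0.23 and -0.18 (SKNMC, 200 against 50 nM) and -0.15 and 0.42 (A673 against SKNMC). In that order, the median of the 10 genes was 0.38, 0.36, 0.28, 0.50, -0.048, 0.11 and 0.26 with the 75th percentile and -0.098, -0.37, -0.35, -0.62, -0.30, -0.40 and 0.89 with the ribosomal protein scaling. Genes down were then 1 at 200 nM in each line, 0 in SKNMC at 50 nM and 0 at its dose step with the 75th percentile, where 1 (HSP90AA1) was up in SKNMC at 200 nM. With the ribosomal protein scaling 2 (HSPA8 and DNAJB1) were down in A673 at 50 nM, 3 (with HSPA1A) at 200 nM, and 4 higher in A673 than SKNMC. At 1.5-fold, 2 were down at 50 nM in each line, 2 up in A673 at 50 nM, 4 down at the SKNMC dose step and 4 higher in A673 than SKNMC. With a pseudocount of 0.1, 2 were down at the SKNMC dose step. With control FPKM above 10, which leaves out HSPA1B in both lines and HSPA1A in SKNMC, 0 were up at 50 nM, 1 and 0 were down at the A673 and SKNMC dose steps, and the medians were -0.15 (SKNMC, 50 nM), 0.017 and -0.040 (dose steps) and 0.54 (between lines). With HSPA1A and HSPA1B summed, 1 was down at the A673 dose step, 0 differed between the lines, and the medians were -0.11, 0.017 and 0.54 (SKNMC at 50 nM, A673 dose step, between lines). Over all alternatives the share of genes that fell ranged from 6.41% to 31.8% and from 10.2% to 41.1% in A673 (50 and 200 nM) and from 6.84% to 33.5% and from 11.8% to 49.9% in SKNMC. With the 75th percentile, genes up made up 24.5% of the genes past 2-fold in SKNMC at 200 nM, against 1.67%, and 26.1% against 4.22% at its dose step. With the ribosomal protein scaling they made up 62.9% between the lines, against 35.9%. Depth is unknown, and the low values of HSPA1A in SKNMC, under 4 FPKM, are the least certain.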

Other observations

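The low-dose peak of HSPA1B was uncommon. Of 10574 genes active in both lines, 23 rose with the low dose in both, and 8 of them (0.0757% of 10574) were also lower by at least 2-fold with the high dose than with the low dose in both lines. Besides HSPA1B these were BRD2, POLR2A, NXF1, TNRC6B, ZBTB34, MYLIP and KLHL11, named after their values were seen. BRD2, a bromodomain reader of acetylated histones, had 95.4, 194 and 75.8 FPKM in A673 and 110.4, 241 and 78.9 FPKM in SKNMC, in the order vehicle, low and high dose. POLR2A, the largest subunit of RNA polymerase II, had 37.6, 116 and 47.4 FPKM in A673 and 29.2, 96.8 and 46.8 FPKM in SKNMC. NXF1, an exporter of messenger RNA, had 36.9, 85.8 and 33.8 FPKM in A673 and 35.2, 128 and 55.9 FPKM in SKNMC. Both differences of a line use its one low-dose library. The SKNMC dose step of HSPA1B was -1.09, and -0.84 with the 75th percentile, short of 2-fold. Its place among the 8 thus depends on the scaling, and the 8 were not recounted under other scalings. In contrast, 920 genes (8.70%) fell with both doses in both lines, DNAJB1 among them.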
